A study of Mus musculus with 17 samples.

Results

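Dup-L is a duplication at the Sox9-Kcnj locus of mouse chromosome 11. Its 2 limb bud libraries, taken on embryonic day E12.5, were compared with the 2 wild-type (WT) libraries of the same stage that match them in limb type, WT 2 and WT 4. The members were chosen by a measured value, Pitx1 under 20 CPM in a WT library (CPM, the count over the library's total count, scaled), and they are 4 of the 15 libraries with a column in the gene table, out of 17 labelled samples. Dup-C is another duplication at the locus (2 libraries). Dup-LΔBor joins, by its name, Dup-L with the boundary deletion ΔBor (4 libraries). ΔBor on its own is present as ΔBor het (2 libraries) and ΔBor hom (1 library). Dup-C and Dup-LΔBor were compared with Dup-L only at Kcnj2 and Sox9. All 15 libraries entered the main fit, so every p-value of that fit draws on their shared estimate of the spread. All groups are polyA RNA from limb buds, and the labels give no strain, no zygosity of Dup-L, no extent of any allele and no limb type. Nothing in them tells whether replicates came from separate embryos, so the p-values measure only the spread between these libraries, which may be technical.

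Sox9 encodes a transcription factor needed for cartilage formation, and Kcnj2 and Kcnj16 encode inward-rectifier potassium channels. Mammalian chromosomes fold into topologically associating domains (TADs), within which enhancers and promoters meet more often than across the boundaries between them. Sox9 and the Kcnj genes lie in neighbouring domains with a boundary in between, and Sox9 sits in a large stretch without other coding genes that holds many of its enhancers. In the published account of these alleles, Dup-L crosses that boundary without taking in Kcnj2, whereas the duplication of Dup-C extends over Kcnj2. The question here was what Dup-L leaves at its wild-type level once limb type is matched, and how far the answer depends on the GC content and length of the transcripts.

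Kcnj2 and Abca5, a few genes further along the chromosome, are shown first because they had the 2 highest plain fold changes of the region, and because both pair a GC-poor transcript with a GC-rich promoter. The windows run from 250 bases before to 50 bases after the annotated start (RefSeq, GRCm38.p6), with each CG dinucleotide in capitals. The Kcnj2 window lies at chr11:111065914-111066213 on the plus strand and the Abca5 window at chr11:110337667-110337966 on the minus strand.
Kcnj2: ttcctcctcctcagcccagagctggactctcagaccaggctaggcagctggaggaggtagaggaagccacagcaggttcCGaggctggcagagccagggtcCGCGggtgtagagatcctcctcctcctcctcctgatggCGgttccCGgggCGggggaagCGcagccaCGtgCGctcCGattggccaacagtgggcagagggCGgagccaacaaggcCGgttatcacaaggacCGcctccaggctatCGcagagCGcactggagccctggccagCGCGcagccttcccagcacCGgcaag
Abca5: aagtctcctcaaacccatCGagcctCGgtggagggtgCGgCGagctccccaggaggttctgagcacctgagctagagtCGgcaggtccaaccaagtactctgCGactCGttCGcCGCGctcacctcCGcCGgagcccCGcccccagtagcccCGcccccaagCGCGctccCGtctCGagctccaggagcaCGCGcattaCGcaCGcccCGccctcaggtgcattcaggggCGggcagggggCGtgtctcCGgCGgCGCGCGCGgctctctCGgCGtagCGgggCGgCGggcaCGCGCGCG
The Kcnj2 window held 18 CG dinucleotides and was 66.7% GC, while the annotated Kcnj2 transcript was 41.18% GC. The Abca5 window held 40 CG dinucleotides and was 72.3% GC, against 39.79% in its transcript. Over 32851 promoter windows the median was 7 CG dinucleotides and 52.7% GC. As many CG as in Kcnj2 were found in 29.7% of windows, and as many as in Abca5 in 3.91%. The GC box GGGCGG, searched on both strands, occurred 2 times in the Kcnj2 window and 5 times in the Abca5 window, and 35.7% of all windows held it. It overlaps the CG count, and it is described as letters only. The GC content that the results below follow is that of the transcripts.

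Pitx1, the regulator that specifies hindlimb and the gene that chose the members, stood at 0.527 and 0.685 CPM in Dup-L, against 1.91 CPM in WT 2 and 1.91 CPM in WT 4. The WT libraries just outside the threshold were far from it, with 58.7 CPM in WT 1 and 68.5 CPM in WT 3. Tbx4, which also acts in hindlimb, had 19.9 and 19.01 CPM in Dup-L, against 27.0 and 28.9 CPM in WT 2 and WT 4. The forelimb gene Tbx5 stood at 190 and 186 CPM in Dup-L, against 244 and 200 CPM in WT 2 and WT 4. These limb-type genes are given as values without a test. All 4 libraries were low in Xist, the RNA of the inactive X chromosome, with 1.25 and 0.959 CPM in Dup-L, against 1.05 and 0.609 CPM in WT 2 and WT 4. Total counts were 36088009 and 36510338 in Dup-L, against 53371442 in WT 2 and 34486256 in WT 4. The Dup-L pair differed less than the WT pair, with a mean chi-square per gene of 6.87 between Dup-L 1 and 2 and 37.1 between WT 2 and 4. The tissue showed in the distal limb list, whose genes summed to 2079 and 2150 CPM in Dup-L, against 1975 and 1687 CPM in WT 2 and WT 4. The library numbers in the column headers fall in 2 ranges, and only WT 4 of the 4 libraries is from the second.

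Whether Dup-L alters the genes next to it was asked first. Kcnj2 had 25.7 and 33.8 CPM in Dup-L, against 22.6 CPM in WT 2 and 18.4 CPM in WT 4. The groups did not overlap, although 30.7% of all genes tested were likewise higher in both Dup-L libraries. It averaged 29.7 ± 5.72 CPM in Dup-L, against 20.5 ± 2.97 CPM in WT 2 and WT 4 (SD, n = 2 each). In edgeR's quasi-likelihood fit on the counts, the plain fit, the log2 fold change was 0.58 (SE 0.21, 95% interval 0.12 to 1.04), which did not pass the threshold of 0.05 (adjusted p = 0.0675). It passed when only the 4 libraries were fitted (0.59, adjusted p = 0.024) and with DESeq2 (0.57, adjusted p = 0.0295). With per-library offsets for GC content and transcript length it was 0.16 (SE 0.22, interval -0.31 to 0.63, adjusted p = 0.797). Over all alternatives run, the value lay between -0.03 and 0.76 and the adjusted p between 0.024 and 0.994. The call of Kcnj2 thus depended on the tool and on the samples fitted, and the offset interval reaches beyond 1.5-fold (0.58 on the log2 scale).

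Sox9 had 134 and 143 CPM in Dup-L, against 168 CPM in WT 2 and 129 CPM in WT 4. Both Dup-L values lay between those of WT. Its log2 fold change was -0.06 (SE 0.17, interval -0.42 to 0.30, adjusted p = 0.832), and -0.08 with offsets (interval -0.45 to 0.29). Both intervals lie within 1.5-fold, as did those of 31.1% of all genes in the plain fit and 57.0% with offsets. Without WT 2 the value was 0.16 (adjusted p = 0.614), so its sign depends on 1 WT library, and over all alternatives the adjusted p lay between 0.397 and 0.99. Kcnj16 had 2 and 2 counts in Dup-L, against 3 counts in WT 2 and 1 count in WT 4. At this depth a difference in Kcnj16 was not detectable.

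**Figure D1:**
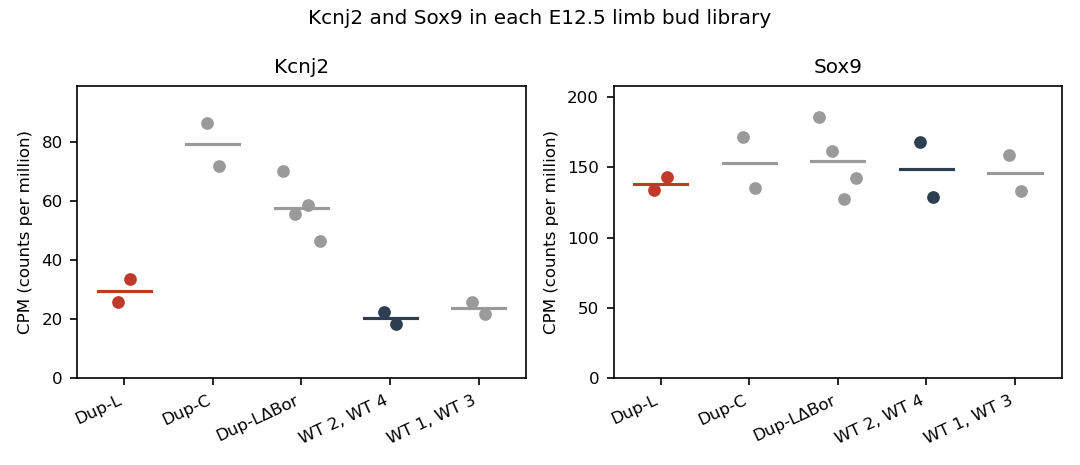
Kcnj2 (left) and Sox9 (right) in CPM for each library of Dup-L, Dup-C, Dup-LΔBor, WT 2 and 4, and WT 1 and 3; points are libraries and lines are group means. Kcnj2 in Dup-L (25.7 and 33.8 CPM) lies above WT 2 and 4 (22.6 and 18.4 CPM) and below every Dup-C and Dup-LΔBor library, while Sox9 overlaps in all groups shown.

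Kcnj2 was lower in Dup-L than in the other alleles that carry a duplication. In Dup-C it had 86.5 and 71.9 CPM, and the log2 difference, Dup-L minus Dup-C, was -1.47 (SE 0.21, interval -1.93 to -1.02, adjusted p = 0.00159), or -1.81 with offsets (adjusted p = 0.00139). In the plain fit 11.8% of all genes were lower in Dup-L than in Dup-C, and 9.12% with offsets. The columns taken as Dup-LΔBor carry a genotype string that joins a Sox9 duplication with a deletion, and they were matched to the group by that, not to single samples. In these 4 columns Kcnj2 lay between 46.4 and 70.2 CPM. Replicates 4 and 5 share a library number in the headers. They differ in Kcnj2 (58.6 and 46.4 CPM) and Pitx1 (59.8 and 41.1 CPM), and without replicate 4 or 5 the difference below was -0.95 or -1.07. There the log2 difference, Dup-L minus Dup-LΔBor, was -0.96 (SE 0.18, interval -1.36 to -0.57, adjusted p = 0.00122), or -1.49 with offsets (adjusted p = 5.2e-04), with 23.2% of genes lower in the plain fit and 15.8% with offsets. Both differences passed the threshold in every alternative run, including each Dup-L, Dup-C or Dup-LΔBor library left out in turn. These groups differ in limb type. Pitx1 was at 0.527 and 0.685 CPM in Dup-L, against 86.9 and 66.1 CPM in Dup-C and 41.1 to 74.6 CPM in Dup-LΔBor, so allele and limb type cannot be told apart in these comparisons. Within WT, Kcnj2 had 25.7 and 21.8 CPM in the libraries high in Pitx1 (WT 1 and WT 3) and 22.6 and 18.4 CPM in those low in it (WT 2 and WT 4), which overlap. All Dup-LΔBor libraries are also of the second number range, and both Dup-L libraries of the first. With the range as a term in the edgeR fit, the difference from Dup-LΔBor was -1.23 (adjusted p = 0.0132). With that term and offsets it was -1.65 (adjusted p = 0.0238). One Dup-C library, replicate 1, was high in Xist (2551 CPM). Without that library the log2 difference from Dup-C was -1.36, and the part of Xist was not tested beyond that. Sox9 did not pass in either comparison, with a difference of -0.21 from Dup-C (interval -0.57 to 0.15) and -0.16 from Dup-LΔBor (interval -0.48 to 0.15).

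The remaining genes between the flanks also stayed under the threshold. Map2k6, a kinase of the p38 pathway on the far side of Kcnj16, had 53.2 and 55.0 CPM in Dup-L, against 52.4 and 42.6 CPM in WT 2 and WT 4. Its log2 fold change was 0.23 (interval -0.05 to 0.51) and 0.03 with offsets (-0.23 to 0.29). Slc39a11, a zinc transporter gene on the far side of Sox9, had 16.6 and 15.3 CPM in Dup-L, against 15.8 and 16.6 CPM in WT 2 and WT 4, at 0.02 (-0.25 to 0.28) and 0.25 with offsets. Map2k6, Slc39a11 and Sox9 were the 3 of 6 tested locus genes whose intervals lay within 1.5-fold in both fits. Over all genes, 4804 of 16135 did so. The noncoding gene 2610035D17Rik had 19.2 and 22.7 CPM in Dup-L, against 17.8 and 16.6 CPM in WT 2 and WT 4, with a log2 fold change of 0.32 (adjusted p = 0.208) and 0.47 with offsets (adjusted p = 0.293). BC006965, which lies between Kcnj2 and Sox9, had 4.77 and 7.203 CPM in Dup-L, against 10.3 and 9.19 CPM in WT 2 and WT 4. It stood at -0.66 on the log2 scale (SE 0.26, adjusted p = 0.081) and -0.86 with offsets (interval -1.40 to -0.32, adjusted p = 0.171), the only locus gene whose Dup-L values both lay under WT. For comparison, 37.9% of all genes tested were lower in both Dup-L libraries. By unadjusted p, 2 of the 6 locus genes were under 0.05, Kcnj2 and BC006965, and these were also the 2 called by DESeq2. Over all 17655 genes, 6553 had such a p in the plain fit, and DESeq2 called 4832. Against all 4 WT libraries BC006965 stood at -0.14.

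Among 19 flanking genes of chromosome 11, 1 rose and 4 fell in the plain fit, in which 23.0% of all genes tested passed, 11.9% as lower in Dup-L. Abca5, a lipid transporter gene, rose, with 29.7 and 33.4 CPM in Dup-L, against 21.1 and 20.4 CPM in WT 2 and WT 4 (log2 fold change 0.65, SE 0.15, adjusted p = 0.0126). Its value with offsets was 0.23 (interval -0.02 to 0.48, adjusted p = 0.401). Cog1, a subunit of a Golgi tethering complex, fell, with 17 and 10 counts in Dup-L, against 93 and 83 counts in WT 2 and WT 4 (-2.42, SE 0.46, adjusted p = 0.00847). It stood at -2.06 with offsets (interval -2.97 to -1.16, adjusted p = 0.0868). Rpl38, a ribosomal protein gene, fell by 0.57 on the log2 scale (adjusted p = 0.0124), with a value of 0.00 with offsets (interval -0.26 to 0.26). Cpsf4l (-0.61, adjusted p = 0.0409) and Sdk2, an adhesion molecule of synapses (-1.07, adjusted p = 0.0466), fell in the plain fit and were at -0.34 and -0.51 with offsets. Over all genes, 4804 of 16135 had intervals within 1.5-fold in both fits. Amz2, Arsg, Wipi1, Prkar1a, D11Wsu47e and Cdc42ep4 were the 6 of 19 flanking genes whose intervals held there. Prkar1a, a regulatory subunit of protein kinase A, was the most abundant of them, with 430 and 441 CPM in Dup-L, against 402 and 391.6 CPM in WT 2 and WT 4 (0.18 and, with offsets, -0.05). With offsets, none of the 19 passed in edgeR, and 2 had an unadjusted p under 0.05, Cog1 and Cdc42ep4. Over all genes, 2267 of 16135 had such a p with offsets. In the plain setting DESeq2 called 5 of the 19 and limma 4, where they called 4832 and 4000 of all 17655 genes.

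**Figure D2:**
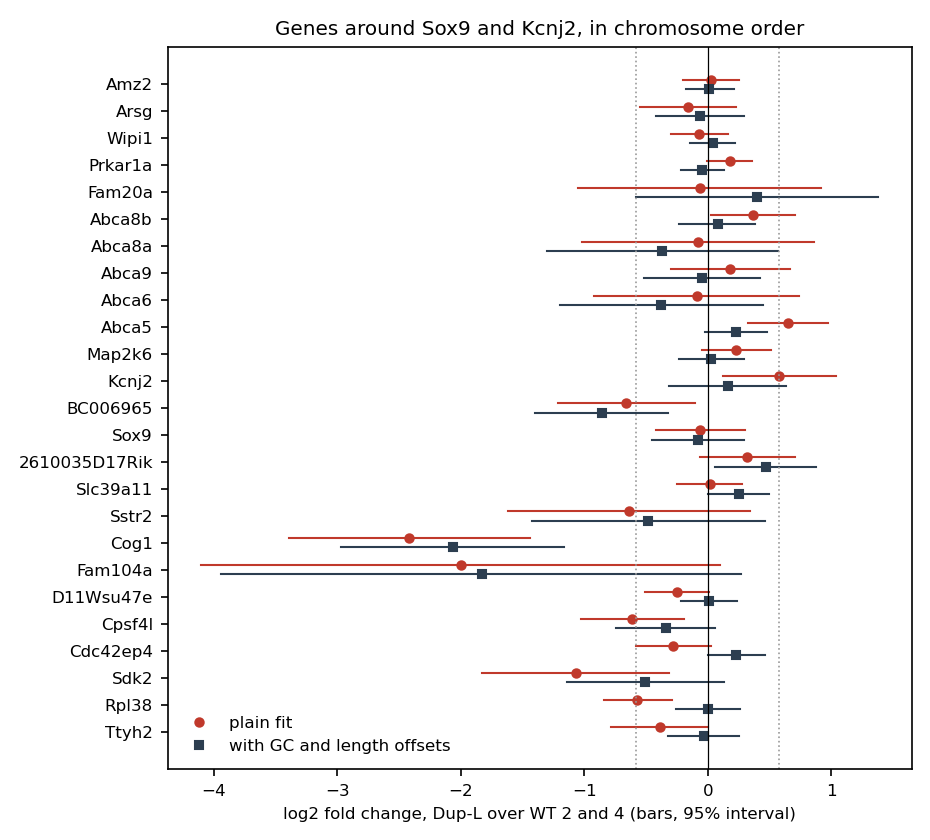
Log2 fold change of Dup-L over WT 2 and 4 for the tested locus and flanking genes in chromosome order, from the plain fit (circles) and with GC and length offsets (squares), with 95% intervals; dotted lines mark 1.5-fold. Abca5 and Kcnj2 lie right of 0 in the plain fit (0.65 and 0.58) and move toward 0 with offsets (0.23 and 0.16), Rpl38 moves to 0.00, and Cog1 stays at about the same place (-2.42 and -2.06).

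Across the genome, 4052 of 17655 genes (23.0%) passed in the plain fit, 1950 higher and 2102 lower in Dup-L, and 413 of them differed by at least 2-fold. With offsets, 10 of 16135 genes (0.0620%) passed, 2 higher (0.0124%) and 8 lower (0.0496%). An unadjusted p under 0.05 was reached by 6553 genes in the plain fit and by 2267 with offsets. The plain count rested on both Dup-L libraries: edgeR called 0 genes without Dup-L 1 (5079 at an unadjusted p under 0.05) and 0 without Dup-L 2 (4300 at an unadjusted p under 0.05). It was 2530 without WT 2 and 116 without WT 4, the setting in which the libraries contrasted are all of the first number range. In these fits the spread of a group with 1 library is taken from the other groups. Every gene that is said to have risen or fallen here lost its call when either Dup-L library was left out.

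The fold changes followed GC content. In 5 equal bins of transcript GC content, from low to high, the median log2 fold change was 0.45, 0.19, -0.03, -0.25 and -0.52. In the lowest bin, 1387 of 3227 genes passed as higher in Dup-L and 11 as lower. In the highest bin 6 passed as higher and 1350 as lower. The middle bin, from 48.4% to 52.2% GC, had 66 higher and 126 lower. Against each WT library alone the medians ran the same way, with 0.38 and -0.54 in the outer bins against WT 2, and 0.43 and -0.54 against WT 4. The order therefore also held against WT 2, which shares the number range of Dup-L. Over 16135 genes, 44.5% of the variance in log2 fold change went with GC content and length, GC content alone 43.6% and length alone 1.22%. Among the 9669 genes with a mean of at least 10 CPM the share was 73.3%. These shares are descriptions across genes, which are not independent replicates.

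Length had little to add. Over 5 equal bins from the shortest to the longest transcripts the median log2 fold change was -0.14, -0.06, -0.02, 0.02 and 0.03. In the shortest bin, up to 1720 bases, 192 genes passed as higher and 429 as lower in Dup-L, and in the longest 475 and 411. With offsets for length alone 4102 genes passed, and with offsets for GC content alone 21.

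The tilt was also measured in each library. For each library, the median log2 deviation from the gene means was computed in the highest and the lowest of the 5 GC bins. The highest minus the lowest was -0.66 and -0.76 in Dup-L, against 0.23 in WT 2 and 0.29 in WT 4. Other libraries ranged from -0.62 (one of the ΔBor het libraries) to 0.52 (a Dup-LΔBor library), and the other ΔBor het library was at 0.02. Of the number range of Dup-L, which also holds WT 2 and both ΔBor het libraries, Dup-C stood at 0.11 and -0.16. In the same range ΔBor hom was at -0.43 and WT 1 at 0.13. The Dup-LΔBor libraries, of the second range, ran from 0.14 to 0.52. Since the 2 Dup-L libraries are the only ones of their genotype and both are tilted, the tilt and the genotype cannot be told apart in these data.

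**Figure D3:**
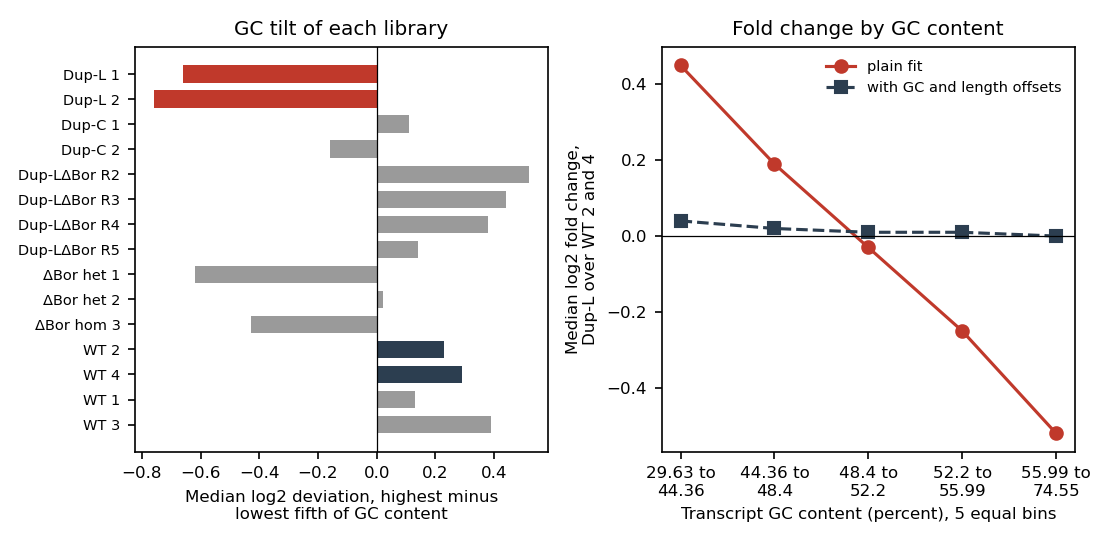
Left, the median log2 deviation of the highest minus the lowest of 5 bins of transcript GC content in each library; right, the median log2 fold change of Dup-L over WT 2 and 4 in 5 equal bins of GC content, in the plain fit and with GC and length offsets. The Dup-L bars (-0.66 and -0.76) are the lowest of the 15, and the plain medians run from 0.45 to -0.52 while those with offsets lie between 0.04 and 0.00. The offsets were fitted on GC content, so the medians with offsets are near 0 by construction.

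After the offsets the medians over the same GC bins lay between 0.04 and 0.00, and 0.287% of the variance was left with GC content and length. The offsets were fitted on these same properties in these libraries, so both results are near 0 by construction and test nothing. The sign itself turned for 558 of the 3914 plain calls that have an offset value, 211 of those higher and 347 of those lower in Dup-L. Lpar4, a receptor of lysophosphatidic acid with a 33.72% GC transcript, rose in the plain fit, with 87.8 and 81.1 CPM in Dup-L, against 56.9 and 46.7 CPM in WT 2 and WT 4 (0.75, adjusted p = 0.00847). Its value with offsets was -0.03 (interval -0.27 to 0.21). Zfpm1, a cofactor of GATA factors with a 66.81% GC transcript, fell in the plain fit, with 4.32 and 3.86 CPM in Dup-L, against 8.60 and 7.22 CPM in WT 2 and WT 4 (-0.91, adjusted p = 0.0263). Its value with offsets was 0.16 (interval -0.29 to 0.62).

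What stayed near WT was counted from the intervals. In the plain fit 5489 genes (31.1%) had an interval within 1.5-fold, and with offsets 9196 (57.0%). Both fits placed 4804 of 16135 genes there. By GC bin, from low to high, the plain fit placed 467, 1530, 1777, 1244 and 348 genes there, and the offset fit 1941, 1959, 1876, 1804 and 1616. Of the 3914 plain calls that have an offset value, 2977 lay within 1.5-fold with offsets.

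Only 9 genes passed in both fits, 8 lower and 1 higher in Dup-L. Prdm16, a transcriptional regulator known from brown fat and craniofacial development, had 21.6 and 20.02 CPM in Dup-L, against 48.0 and 43.5 CPM in WT 2 and WT 4. It fell, at -1.09 on the log2 scale (SE 0.14 and adjusted p = 0.00737), and stood at -0.76 with offsets (SE 0.10, adjusted p = 0.0334).

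Subunits of the respiratory chain and the ribosome were among the 8. Uqcrq, a subunit of complex III on chromosome 11, had 22.7 and 17.04 CPM in Dup-L, against 48.4 and 53.2 CPM in WT 2 and WT 4. It fell, at -1.31 (SE 0.20, adjusted p = 0.00737), and stood at -1.33 with offsets (adjusted p = 0.0457). Ndufb6, a subunit of complex I, had 12.9 and 11.3 CPM in Dup-L, against 23.6 and 24.1 CPM in WT 2 and WT 4, and fell by 0.94 (SE 0.15), with -1.01 with offsets (adjusted p = 0.0457). Rpl37a, a protein of the large ribosomal subunit, had 241 and 211 CPM in Dup-L, against 363 and 354 CPM in WT 2 and WT 4, at -0.62 and -0.76 with offsets. That the groups of these genes do not overlap was part of the rule that named them. Ribosomal protein genes have many processed copies, and it is not known here how the authors assigned reads to such copies, so their levels are uncertain. Rps23, Rps4x and the glycolytic gene Aldoa were listed at 0 counts in all 4 libraries.

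The other named genes past in both fits were regulators. Strada, the pseudokinase partner of the kinase LKB1, also on chromosome 11, had 32.9 and 35.6 CPM in Dup-L, against 47.1 and 50.6 CPM in WT 2 and WT 4 (-0.47, and -0.98 with offsets). Gatad2b, a subunit of the NuRD chromatin complex, had 36.5 and 35.0 CPM in Dup-L, against 48.5 and 51.5 CPM in WT 2 and WT 4 (-0.44, and -0.54 with offsets). The remaining 3 of the 9 are outside the rule for named genes and were chosen after their values were seen. Ankib1 had 3 and 2 counts in Dup-L, against 34 and 42 counts in WT 2 and WT 4 (-3.62, and -3.82 with offsets). The predicted gene Gm1673 fell (-2.38, and -1.22 with offsets), and Gm12034, a predicted gene of chromosome 11, rose (0.99, and 1.08 with offsets). Mir682 passed with offsets only, with 92.4 and 83.1 CPM in Dup-L, against 89.6 and 81.1 CPM in WT 2 and WT 4. Its groups overlapped and the plain value was 0.08, while the offset value of 0.83 comes from an annotated transcript of 96 bases and 61.46% GC. No call made with offsets held when any 1 of the 4 libraries was left out, and the lowest adjusted p over all genes with offsets was 0.0334.

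**Figure D4:**
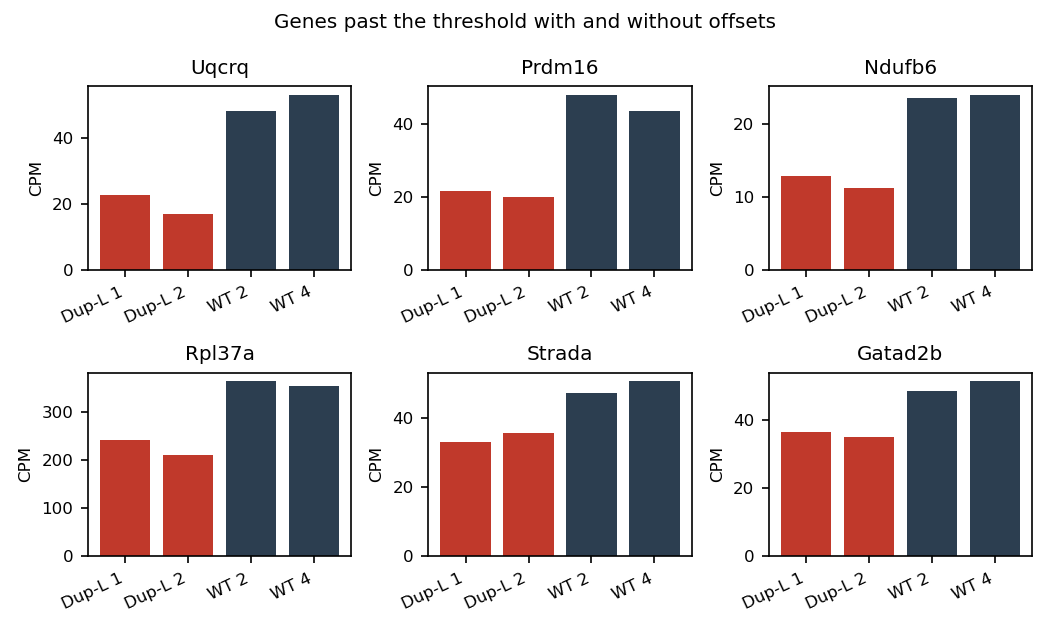
CPM in Dup-L 1, Dup-L 2, WT 2 and WT 4 for the 6 genes that passed in both fits by the rule for named genes; bars are single libraries and each axis starts at 0. The genes were chosen for bars that do not overlap between the groups, and the largest fold is in Uqcrq (22.7 and 17.04 CPM against 48.4 and 53.2 CPM).

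For each gene list below, members past the threshold are named as examples, chosen after their values were seen. Counts are to be read beside the 23.0% of all genes that passed in the plain fit. Counts by unadjusted p are to be read beside 6553 of 17655 genes in the plain fit and 2267 of 16135 with offsets. Counts within 1.5-fold in both fits are to be read beside 4804 of 16135 genes. Genes that act with or after Sox9 in cartilage come first. Of 21 tested members of the list of Sox9 partners and cartilage matrix, 5 fell and none rose in the plain fit, in which 11.9% of all genes passed as lower. Their median log2 fold change was -0.72, against -0.02 over all genes tested. With offsets the median was -0.19, against 0.02 over all genes, and none passed (5 of 21 had an unadjusted p under 0.05, all lower). Col2a1, the main collagen of cartilage, had 355 and 361 CPM in Dup-L, against 793 and 670 CPM in WT 2 and WT 4. It fell by 0.99 (adjusted p = 0.0266), and with offsets it stood at -0.19 (interval -0.66 to 0.28). Comp, a cartilage matrix protein, had 2.27 and 1.92 CPM in Dup-L, against 5.43 and 9.25 CPM in WT 2 and WT 4, and fell by 1.76 (adjusted p = 0.0143), with -1.19 with offsets (adjusted p = 0.17). Sox8, a relative of Sox9, fell by 0.66, Pth1r, the receptor of parathyroid hormone-related protein, by 0.78, and Ihh, the hedgehog ligand of growing cartilage, by 1.34 on the log2 scale, with -0.41, -0.19 and -0.61 with offsets. Sox6, a cofactor of Sox9 with a 46.09% GC transcript, had 102 and 111 CPM in Dup-L, against 112 and 91.2 CPM in WT 2 and WT 4 (0.11, and 0.03 with offsets). Chst11, a chondroitin sulfotransferase, was at -0.15 and -0.10 with offsets, and with Sox9 and Sox6 it was within 1.5-fold in both fits. The summed level of the list was 2139 and 2236 CPM in Dup-L, against 3254 and 3049 CPM in WT 2 and WT 4. This sum is not corrected for GC content, and with offsets the median of the list was -0.19, as given above. In bulk tissue fewer cells of a type and less RNA per cell cannot be told apart, for this list or any other.

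Markers of skeletal muscle had one of the lowest medians of the lists. Of 21 tested members 1 fell in the plain fit, with a median of -0.54 and of -0.46 with offsets. Lbx1, a factor of migrating muscle precursors, had 0.443 and 0.274 CPM in Dup-L, against 1.29 and 1.45 CPM in WT 2 and WT 4, and fell by 1.88 (adjusted p = 0.0223), with -1.21 with offsets (adjusted p = 0.282). Myod1, which sets muscle identity, was at -0.75 (adjusted p = 0.194), and Myh3, the embryonic myosin, at -0.88 (adjusted p = 0.148), with -0.25 and -0.56 with offsets. The summed muscle level was 768 and 938 CPM in Dup-L, against 1191 and 1481 CPM in WT 2 and WT 4. Its part in the other differences was not tested.

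Of 17 tested genes of anterior-posterior patterning 9 were within 1.5-fold with offsets, near the 57.0% of all genes. In the plain fit 5 of the 17 fell, against 11.9% of all genes. Gli1 and Gli2, transcription factors of the hedgehog pathway, fell by 0.64 and 0.59, with -0.08 and -0.05 with offsets. Ptch1, the hedgehog receptor, stood at -0.14 and did not pass. Hand2, a factor of posterior mesenchyme, fell by 0.42 and stood at 0.10 with offsets, and Tbx2 fell by 0.93 and stood at -0.11. Gli3, the main repressor of the pathway, had 326 and 340 CPM in Dup-L, against 328 and 334 CPM in WT 2 and WT 4 (0.05, interval -0.28 to 0.39, and 0.09 with offsets). Gli3, Ptch1 and Bmp2 were within 1.5-fold in both fits. Of the 5 dorsal-ventral genes Lmx1b, which marks dorsal mesenchyme, fell, with 16.96 and 18.1 CPM in Dup-L, against 39.9 and 34.7 CPM in WT 2 and WT 4 (-1.05, adjusted p = 0.00792). With offsets it was at -0.54 (interval -0.80 to -0.28, adjusted p = 0.101), while Gpc3 and Wnt7a stayed within 1.5-fold in both fits.

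The distal limb list had 1 gene higher and 1 lower of 16 tested. Hoxd13, the homeobox gene of the digit region, rose, with 749 and 799 CPM in Dup-L, against 565 and 500 CPM in WT 2 and WT 4 (0.58, SE 0.15, adjusted p = 0.0172). With offsets it stood at 0.42 (interval 0.13 to 0.70, adjusted p = 0.193). Msx1, a homeobox gene of undifferentiated mesenchyme, fell, with 13.6 and 10.9 CPM in Dup-L, against 42.3 and 39.9 CPM in WT 2 and WT 4 (-1.71, adjusted p = 0.028, and -1.25 with offsets, adjusted p = 0.193). Its relative Msx2 was at -0.05 and -0.16 with offsets. Wnt5a, a ligand of limb outgrowth, had 406 and 407 CPM in Dup-L, against 376 and 387 CPM in WT 2 and WT 4 (0.13, interval -0.07 to 0.33, and 0.05 with offsets). Msx2, Wnt5a and Hoxa13 were among the 4 distal genes within 1.5-fold in both fits. Of 12 proximal limb genes none passed in edgeR, DESeq2 or limma. In the plain fit 2 had an unadjusted p under 0.05, 1 in each direction, as did 6553 of all 17655 genes in either direction.

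In FGF signalling and the apical ridge 3 of 22 fell, the receptors Fgfr1 (-0.47) and Fgfr3 (-0.72) and the ligand Bmp7 (-1.08), with -0.09, -0.31 and -0.74 with offsets. Fgfr2 had 232 and 227 CPM in Dup-L, against 223 and 213 CPM in WT 2 and WT 4 (0.11, interval -0.17 to 0.40, and 0.13 with offsets). The targets Etv5 and Spry4 were within 1.5-fold in both fits, at -0.11 and -0.03, and 0.02 and 0.09 with offsets. Joint genes were split, with Dcx (0.53) and Trps1 (0.43) higher and Chrd (-0.58) lower of 12, at 0.16, 0.08 and 0.04 with offsets. Their transcripts are 40.56%, 40.74% and 60.18% GC. In tendon, Scx, the factor that marks the lineage, fell by 1.14 and Col1a1 by 1.02, of 12 tested, with -0.31 and -0.42 with offsets. Wnt4 among joint genes, and Tgfb3 and Fmod among tendon genes, were within 1.5-fold in both fits.

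**Figure D5:**
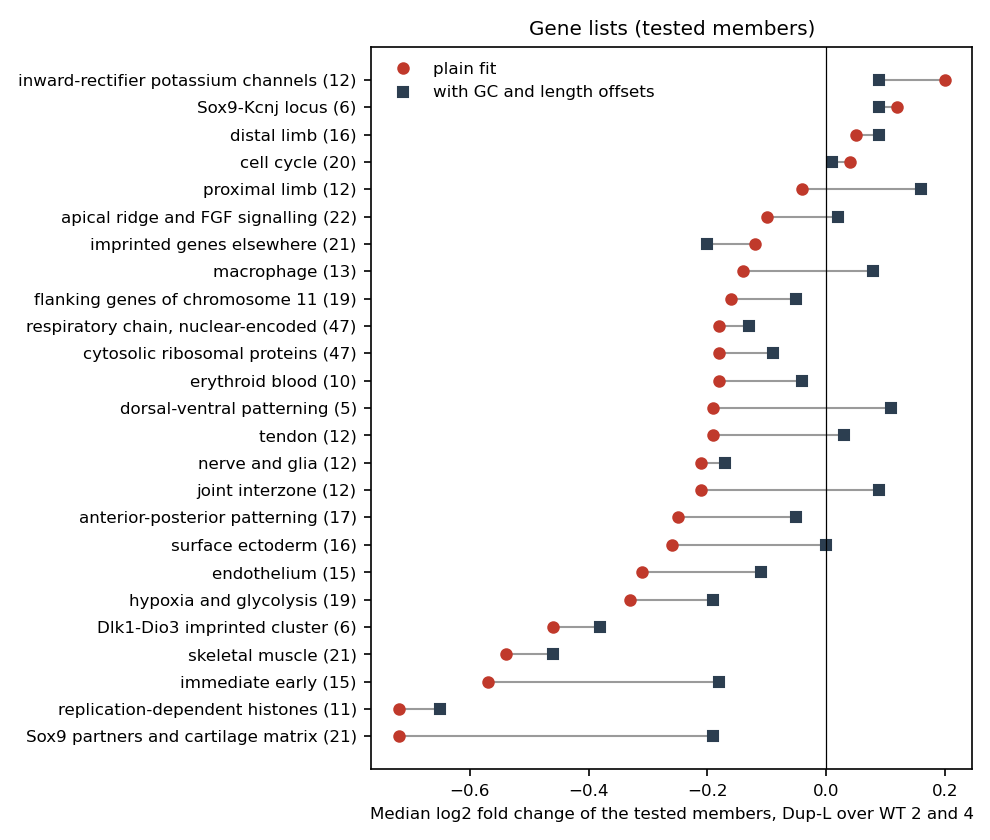
Median log2 fold change of Dup-L over WT 2 and 4 for each gene list, in the plain fit (circles) and with GC and length offsets (squares), with the number of tested members in brackets and the limb-type, sex-linked and mitochondrially encoded lists left out. The cartilage list moves from -0.72 in the plain fit to -0.19 with offsets, the immediate early list from -0.57 to -0.18, and skeletal muscle stays near -0.54 and -0.46.

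Other cell types of the limb bud were followed by their markers. Of 15 endothelial genes Emcn rose (0.47) and Sox18 (adjusted p = 0.0164), Plvap (-0.95), Cldn5 (-0.73) and Egfl7 (-0.44) fell. With offsets they stood at 0.00, -0.38, -0.35, -0.13 and 0.05. Pecam1, Tek and Kdr, which mark the same cells, were within 1.5-fold in both fits, with Pecam1 at 68.4 and 63.4 CPM in Dup-L, against 69.8 and 72.6 CPM in WT 2 and WT 4. Of 12 nerve and glia genes Ngfr (-0.78), Erbb3 (-0.48), Foxd3 (-1.27) and Tubb3 (-0.65) fell, with -0.26, -0.33, -0.35 and -0.21 with offsets. Of 16 genes of surface ectoderm Wnt6 (-0.85), Krt14 (-0.55) and Krt8 (-0.74) fell, with -0.20, -0.15 and -0.35 with offsets, while Trp63, Cdh1 and Grhl3 were among the 4 within 1.5-fold in both fits. Of 13 macrophage genes none passed in edgeR, DESeq2 or limma. By unadjusted p in the plain fit, 3 of the 13 were under 0.05, where 6553 of all 17655 genes were. The summed level of the macrophage list was 93.9 and 86.2 CPM in Dup-L, against 96.9 and 101 CPM in WT 2 and WT 4. The macrophage gene Adgre1 had 0 counts in all 4 libraries, under that symbol and under Emr1. Of 10 blood genes Hba-x, an embryonic globin, fell by 0.85 (-0.50 with offsets). The blood list summed to 2554 and 1835 CPM in Dup-L, against 1957 and 3352 CPM in WT 2 and WT 4, so the groups overlap, and the adult globin genes Hba-a2, Hbb-b1 and Hbb-b2 were listed at 0 counts in all 4 libraries. Of 12 inward-rectifier potassium channel genes, the family of Kcnj2, none passed in edgeR or limma, 1 had an unadjusted p under 0.05, and DESeq2 called Kcnj2 alone.

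Genes of general cell functions were also compared. Of 20 cell cycle genes 18 had an interval within 1.5-fold with offsets, against 57.0% of all genes. In both fits 11 did, as did 4804 of 16135 genes in all. The 20 genes averaged from 45.0 CPM (E2f1) to 1052 CPM (Top2a), whereas all genes include those of few counts with wide intervals. These shares are therefore not matched for level. Ccnd2, a cyclin of the G1 phase, had 985 and 978 CPM in Dup-L, against 968 and 1021 CPM in WT 2 and WT 4 (0.02, interval -0.21 to 0.25, and -0.05 with offsets). Pcna (0.04) and Mcm6 (0.17), both of DNA replication, were also within 1.5-fold in both fits. Mki67 (0.46), Top2a (0.43) and Bub1 (0.71) rose, with 0.42, 0.12 and 0.24 with offsets. Plk1 (-0.61), Mcm2 (-0.59), Mcm5 (-0.51), E2f1 (-0.46) and Ccnd1 (-0.32) fell, with -0.29, -0.25, -0.38, 0.02 and -0.25 with offsets.

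Of 47 tested ribosomal protein genes 1 rose and 15 fell, where 11.9% of all genes passed as lower and 23.0% in either direction. They had a median of -0.18 and of -0.09 with offsets. Among the 15 are 2 genes of few counts, whose levels are uncertain because the assignment of reads to copies is not known. Rpl34 had 15 and 14 counts in Dup-L, against 83 and 70 counts in WT 2 and WT 4. Rps2 had 5 and 5 counts in Dup-L, against 18 and 34 counts in WT 2 and WT 4. Rpsa, Rpl3 and Rpl7 were the most abundant of the 17 within 1.5-fold in both fits. Rpl7 had 1336 and 1279 CPM in Dup-L, against 1067 and 1204 CPM in WT 2 and WT 4 (0.25, and 0.01 with offsets). Rpl4 was the one that rose (0.35, and 0.22 with offsets). Rps28 fell by 1.06 and Rpl28 by 0.72, with -0.65 and -0.57 with offsets (adjusted p = 0.12 and 0.09). Of 47 nuclear-encoded genes of the respiratory chain 4 rose and 15 fell, against the same shares over all genes. They had a median of -0.18 and of -0.13 with offsets. Those that rose, Uqcrb (0.76), Cycs (0.54), Ndufv2 (0.44) and Uqcrc2 (0.37), have transcripts between 40.83% and 44.41% GC and stood at 0.36, 0.06, -0.03 and 0.02 with offsets. Ndufs7 fell by 1.38 and Cox5b by 0.92, with -0.81 and -0.96 with offsets. Cox5b, with a 49.02% GC transcript, had 48.3 and 46.0 CPM in Dup-L, against 74.9 and 109 CPM in WT 2 and WT 4. Atp5b, Sdha and Atp5a1 were the most abundant of the 22 within 1.5-fold in both fits. With offsets 14 ribosomal genes were lower and 2 higher at an unadjusted p under 0.05, and 14 respiratory genes lower and 3 higher, where 2267 of all 16135 genes had such a p in either direction. None of either list passed after adjustment. Rpl37a, Uqcrq and Ndufb6, described above, are not on these lists.

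Stress and metabolic genes fell in the plain fit where they passed. Of 15 immediate early and heat shock genes Hspa1a (-1.73), Hspa1b (-1.62), Ier2 (-0.96), Junb (-1.11) and Nr4a1 (-0.57) fell, with -1.20, -1.15, -0.32, -0.38 and -0.18 with offsets. Hspa1a and Hspa1b are near-identical copies, so reads may be shared between them. Dusp1 was within 1.5-fold in both fits (-0.17, and 0.09 with offsets). Of 19 genes of hypoxia and glycolysis Gapdh (-1.15), Pfkl (-0.95), Hk1 (-0.87) and Pfkm (-0.49) fell, with -0.77, -0.52, -0.46 and -0.21 with offsets. Gapdh, a glycolytic enzyme often used as a reference, had 506 and 489 CPM in Dup-L, against 988 and 1279 CPM in WT 2 and WT 4. With offsets it did not pass (-0.77, interval -1.06 to -0.48, adjusted p = 0.0657). It also has many processed copies. Pgam1, the next enzyme but one of the pathway, had 351 and 359 CPM in Dup-L, against 397 and 388 CPM in WT 2 and WT 4 (-0.10, interval -0.50 to 0.30).

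Imprinted genes, whose dosage is set by parental origin, were followed in 2 lists. Of 21 tested outside the Dlk1-Dio3 cluster 9 were within 1.5-fold in both fits, among them Igf2, Grb10 and Mest. Grb10 had 1696 and 1835 CPM in Dup-L, against 1748 and 1660 CPM in WT 2 and WT 4 (0.09, interval -0.13 to 0.32, and 0.06 with offsets). Igf2r (-0.61), Peg3 (-0.44) and Phlda2 (-0.99) fell, with -0.40, -0.48 and -0.60 with offsets. In the Dlk1-Dio3 cluster Dlk1 fell, of 6 tested, with 62.5 and 54.1 CPM in Dup-L, against 127 and 153 CPM in WT 2 and WT 4 (-1.22, adjusted p = 0.0437, and -0.96 with offsets). Of 11 tested histone genes Hist1h4d (-3.09) and Hist1h3a (-1.58) fell, with -3.18 and -0.92 with offsets, from 9 and 10 counts in Dup-L, against 108 and 91 counts in WT 2 and WT 4 for Hist1h4d. These transcripts mostly lack polyA tails, so polyA libraries measure them poorly. The one mitochondrially encoded gene in the table, mt-Nd4, has a 35.63% GC transcript and rose by 0.83, with 0.10 with offsets.

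Over the 428 tested genes of the lists, leaving out limb type, the fit with offsets called none. At an unadjusted p under 0.05, 17 were higher and 63 lower in Dup-L with offsets, and 30 higher and 115 lower in the plain fit. DESeq2 called 17 higher and 98 lower of them in the plain setting, and limma 11 higher and 81 lower. Over all 17655 genes DESeq2 called 2268 higher and 2564 lower, and limma (pseudocount 1) 1722 higher and 2278 lower. An unadjusted p under 0.05 in either direction was found for 6553 of 17655 genes in the plain fit and 2267 of 16135 with offsets.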

How the data were processed

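PolyA RNA of E12.5 mouse limb buds was made into TruSeq RNA V2 libraries, per the labels' protocols. The authors deposited unnormalized counts for 34682 genes, with 10244 at 0 in all libraries. STAR, DESeq2, bedtools 2.17.0 and the build mm9 are named in the submitters' processing notes. How reads were counted, with which annotation and strand setting, is not stated, so reads of overlapping or antisense genes cannot be told apart. The authors' FPKM values, used only with limma, are on the log2(FPKM + pseudocount) scale with a pseudocount of 1 or 0.1.

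CPM is the count over the column total. The plain fit was edgeR 4.0.16 (R 4.3.3), quasi-likelihood, TMM and filterByExpr, over all 15 E12.5 libraries with WT split at 20 CPM of Pitx1. Benjamini-Hochberg adjustment ran over all genes tested, with a threshold of 0.05. Offsets were per-library smooth functions (natural splines, 6 degrees of freedom) of GC content and log10 length of the longest transcript (GENCODE, GRCm38), matched by symbol for 23490 genes directly and 1952 by synonym, with 9240 unmatched. Alternatives were DESeq2 1.42.0, limma 3.58.1, RLE, no filter, a library-number term, other library choices and each library left out. The scripts were tested on simulated data. No per-sample column was left unused, and the 2 E17.5 samples were not analysed here.

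Named genes were the locus and flanking genes, limb-type genes as values only, genes past the threshold in both fits with non-overlapping CPM, a mean of at least 1 CPM and no predicted-gene symbol, up to 3 genes per list past in both fits, up to 3 of the most abundant per list within 1.5-fold in both, and the largest folds that turn sign. The members and lists were chosen with earlier results of these data known.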

Additional observations from a re-analysis of the deposited data

How the results depend on the processing

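Other settings were tried throughout. Those with offsets from 1 property, with 3 spline degrees of freedom, with offsets on the 4 libraries or on all WT libraries, without Dup-LΔBor, or without 1 Dup-C or Dup-LΔBor library were chosen after seeing the data. No paired analysis was possible because Dup-L has replicates 1 and 2 while the WT libraries used are 2 and 4, so the groups share only 1 number. The cause of the changes below was not tested. With 36088009 and 36510338 counts in the Dup-L libraries, depth limits mainly genes of a few counts, such as Kcnj16 and Ankib1.

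The number of genes that passed (4052) became 10 with GC and length offsets, 21 with offsets from GC content alone, 9 with 3 degrees of freedom, 2650 with the library-number range as a term and 1 with that term and offsets. It was 92 in the 4 libraries with offsets, 395 against all 4 WT libraries with offsets and 2417 without Dup-LΔBor. Leaving out 1 library gave 0 to 2530 genes, and 0 in each case with offsets. The number within 1.5-fold (5489) became 9196 with offsets, 9086 from GC content alone, 9207 with 3 degrees of freedom, 9776 with the range term and offsets, 9866 in the 4 libraries with offsets, 9145 against all 4 WT libraries with offsets and 11991 with limma on log2(FPKM + 1). With 1 library left out it ran from 3767 to 4299, and from 7120 to 8689 with offsets.

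The share of variance that went with GC content and length (44.5%) stood at 13.8% without a filter on low counts, 54.4% in the 4 libraries, and 53.6% and 54.6% with limma at a pseudocount of 1 and 0.1. With offsets that included GC content it was low by construction, since they were fitted on that property. It was 0.287% with GC and length offsets, 0.247% with the range term and offsets, and 1.86% from GC content alone. It was 0.372% with 3 degrees of freedom, 0.0621% in the 4 libraries with offsets and 0.225% against all 4 WT libraries with offsets. With 1 library left out it ran from 32.7% to 43.2%, and with offsets from 0.245% to 0.366% without a Dup-L library and from 0.167% to 0.244% without a WT library. Kcnj2 (0.58) passed in the 4 libraries (0.59) and with DESeq2 (0.57), and stood at -0.02 against all 4 WT libraries with offsets. With 1 library left out Kcnj2 ran from -0.03 to 0.76 and Sox9 from -0.27 to 0.16. Without WT 4 and with no offsets Sox9 stood at -0.23.

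Of 83 named genes that passed, 9 still did with offsets, 66 did not and 8 turned sign. With offsets these were Chrd (0.04), E2f1 (0.02), Egfl7 (0.05), Emcn (0.00, just under 0 before rounding), Hand2 (0.10), Lpar4 (-0.03), Ndufv2 (-0.03) and Zfpm1 (0.16). With the range term and offsets they were Chrd (0.12), Cycs (-0.09), E2f1 (0.13), Egfl7 (0.07), Gli2 (0.01), Ndufv2 (-0.13), Pth1r (0.08), Rpl38 (0.11) and Zfpm1 (0.06). From GC content alone they were Chrd (0.03), E2f1 (0.04), Egfl7 (0.07), Hand2 (0.13), Lpar4 (-0.02), Trps1 (-0.04) and Zfpm1 (0.15). With 3 degrees of freedom they were Chrd (0.04), E2f1 (0.04), Egfl7 (0.05), Hand2 (0.13), Lpar4 (-0.05), Ndufv2 (-0.02) and Zfpm1 (0.14). In the 4 libraries with offsets they were Chrd (0.04), E2f1 (0.02), Egfl7 (0.06), Emcn (-0.02), Hand2 (0.10), Lpar4 (-0.06), Ndufv2 (-0.04), Rpl38 (0.01) and Zfpm1 (0.17). Against all 4 WT libraries with offsets they were Chrd (0.40), Cycs (-0.10), Egfl7 (0.11), Emcn (-0.11), Gli1 (0.14), Ndufv2 (-0.18), Top2a (0.00), Uqcrc2 (-0.12) and mt-Nd4 (-0.04).

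With 1 library left out, with or without offsets, the log2 fold changes of the genes that turned sign in at least one such fit ran as follows: Chrd from -0.68 to 0.18, Cldn5 from -0.96 to 0.01, Cycs from -0.06 to 0.72, E2f1 from -0.56 to 0.16, Egfl7 from -0.44 to 0.11, Emcn from -0.05 to 0.52, Hand2 from -0.46 to 0.13, Krt14 from -0.82 to 0.05, Lpar4 from -0.12 to 0.91, Ndufv2 from -0.14 to 0.57, Rpl38 from -0.65 to 0.08, Uqcrc2 from -0.08 to 0.50, Zfpm1 from -1.02 to 0.28, mt-Nd4 from 0.00 to 1.09. Without Dup-L 1 and with offsets, E2f1 stood at 0.09 and Zfpm1 at 0.21.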
